A study of Arabidopsis with 12 samples.

Results

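The PRE genes of Arabidopsis (PRE1 to PRE6, for PACLOBUTRAZOL RESISTANCE) and the genes of their antagonists IBH1 and IBL1 were followed in whole seedlings under shade. The 8 genes were taken by locus from a table of 32833 genes, and each was found once or summed over its listed transcripts. Groups were bzip59 in shade, bzip59 in white light, Col-0 in shade and Col-0 in white light, with 3 RNA-seq libraries each and 12 in all. Col-0 is the wild type, and bzip59 is a single insertion line (SALK_024459) in the transcription factor gene bZIP59. All seedlings were raised for 7 days in continuous white light. The shade groups then spent 2 h in shade with red light at 0.65 of far-red light, a condition that seedlings perceive as crowding by neighbours.

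PRE proteins are small helix-loop-helix proteins without a DNA-binding basic region. They pair with other proteins of this kind, among them IBH1, and so keep those from blocking DNA-binding bHLH activators of cell elongation such as HBI1. IBH1 and its close relative IBL1 hold elongation back, and PRE genes are known targets of the brassinosteroid, gibberellin and auxin pathways that promote hypocotyl growth.

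Levels are TPM as the authors deposited them, a scale corrected for transcript length, so that different genes can be set side by side. Sequencing depth cannot be read from TPM and is unknown. Changes are differences of log2(TPM + 1), which understate the change of low genes, with standard errors and adjusted p-values from one limma fit over the 19693 genes that averaged 1 TPM or more. PRE5 lay below that mean and was not tested, so 7 of the 8 genes were. Separate cultures behind the 3 libraries of a group are not stated in the labels, and p-values measure the spread between these libraries only. In whole seedlings, fewer cells of a type and less RNA per cell cannot be told apart. None of the 8 genes overlapped another RefSeq gene, but reads may be shared among the closely related PRE transcripts.

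The 4 green tissue markers summed to between 41876 and 57002 TPM and the 4 root markers to between 1518 and 2870 TPM. PYK10 made up nearly all of the root sum, at 1513 TPM or more in each library. NRT2.1, COBL9 and EXPA7 stayed at 9.47 TPM or less, and EXPA7 was listed at 0 in Col-0 white light 2. Green tissue was thus plain, while the sign of root rests mainly on PYK10. The transcript of bZIP59 itself stood at 7.52, 6.15 and 8.32 TPM in bzip59 shade, against 26.3, 23.1 and 19.9 TPM in Col-0 shade. In white light it was at 3.85, 5.47 and 3.12 TPM in bzip59 and at 17.5, 22.6 and 21.7 TPM in Col-0, so the mutant was lower in every library but not at 0. A pair of shade libraries stood apart, bzip59 shade 2 and Col-0 shade 1. In them 5 dehydration genes, a list written after earlier results, summed to 353 and 316 TPM, against 44.0 to 73.7 TPM in the other shade libraries. In white light the sums ran from 83.1 to 130 TPM. RD29A, COR15A and KIN1 carried the high sums. RAB18 did not share them in bzip59 shade 2, at 18.5 TPM against 36.9 and 19.1 TPM in its group, and RD29B was at 5.84 TPM or less in every shade library. The shade changes of the 7 tested genes are also given without this pair of libraries. The 6 seed storage markers summed to 68.3, 6.05 and 1.25 TPM in bzip59 shade and 165, 40.4 and 23.2 TPM in bzip59 white light. In Col-0 they summed to 2.43, 0.8 and 1.18 TPM under shade and 3.1, 1.67 and 2.26 TPM under white light. They thus separated the genotypes in white light but overlapped in shade, and within bzip59 the light groups overlapped, with library 1 highest in each. Their part in the results was not tested.

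Shade raised 2 of the 7 tested genes in bzip59, PRE6 and the antagonist gene IBH1, and lowered none, where limma called 6.49% of all tested genes higher. In Col-0 4 of the 7 rose, PRE6, PRE2, PRE1 and IBH1, and none fell, where 3.42% of all tested genes were called higher. All 3 shade libraries lay above all 3 white-light libraries for 5 of the 7 tested genes in bzip59, a pattern seen in 21.5% of all tested genes. The same held for 4 of the 7 in Col-0, against 12.1% of all tested genes. PRE5, outside these counts, showed the pattern in both genotypes. The PRE and antagonist genes were chosen with earlier results of these data known. Shares above those of all genes may therefore be partly built in. The median change of the 7 tested genes was log2 0.80 in bzip59, against 0.11 over all tested genes, and 1.15 in Col-0, against -0.01. With TMM factors the median of all genes in bzip59 was -0.01 and the genes called there split into 887 higher and 1158 lower, against 1278 higher and 729 lower without them.

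**Figure D1:**
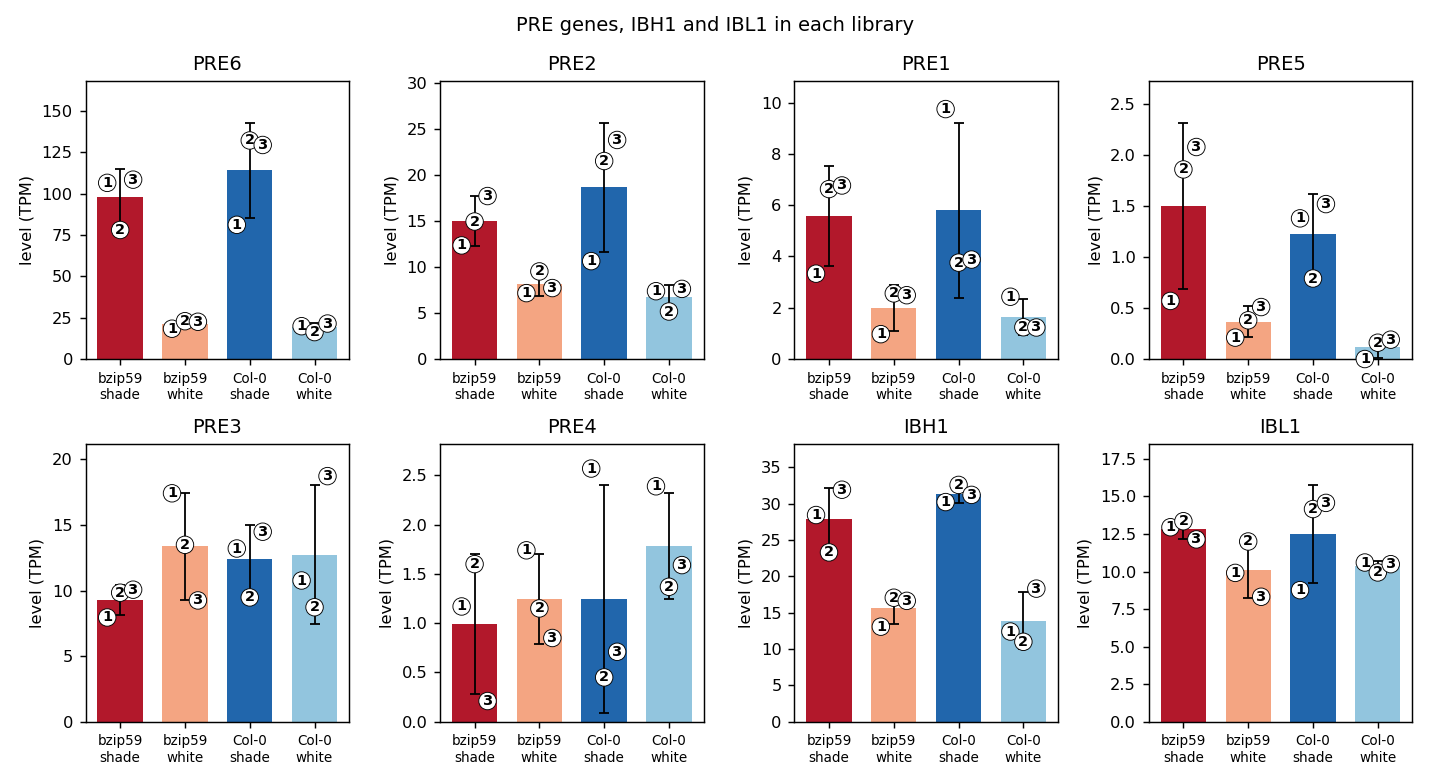
Level (TPM, linear axes from 0, one scale per gene) of each gene in the 4 groups. Bars are means of 3 libraries, error bars are SD, and circled numbers are the single libraries by replicate number. PRE6 in shade lies between 78 and 132 TPM in all 6 libraries, above the 16.3 to 22.9 TPM of the white-light libraries.

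PRE6 (AT1G26945), also called KIDARI, is known to bind HFR1, and it was the most abundant PRE transcript in every library. It measured 107, 78 and 108 TPM in bzip59 shade and 18.3, 22.9 and 22.5 TPM in bzip59 white light. In Col-0 it measured 81.1, 132 and 129 TPM in shade and 19.9, 16.3 and 21.5 TPM in white light. Light separated the libraries completely in both genotypes, and the lowest shade value in each genotype came from the library with the high dehydration sum. The change was log2 2.14 in bzip59 (SE 0.20, limma adjusted p = 7.38e-05, place 107 from the top among 19693 genes). In Col-0 it was log2 2.49 (SE 0.20, limma adjusted p = 2.29e-05, place 78). Without the pair of libraries that stood apart the changes were 2.29 in bzip59 and 2.71 in Col-0.

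PRE2 (AT5G15160), also called BANQUO 2, gave 12.4, 15 and 17.7 TPM in bzip59 shade and 7.17, 9.53 and 7.72 TPM in bzip59 white light. In Col-0 it gave 10.7, 21.5 and 23.8 TPM in shade and 7.38, 5.17 and 7.63 TPM in white light. The groups did not overlap in either genotype, although Col-0 shade 1 lay below all 3 bzip59 shade libraries. The change of log2 0.80 in bzip59 missed the threshold (SE 0.26, limma adjusted p = 0.0747), while PRE2 rose in Col-0 by 1.29 (SE 0.26, limma adjusted p = 0.00877). Without Col-0 shade 1 the bzip59 change passed (limma adjusted p = 0.0157), as it did without the pair that stood apart (0.0408) or with only the bzip59 libraries in the fit (0.0384).

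PRE1 (AT5G39860), whose overproduction lets seedlings elongate when gibberellin synthesis is blocked, was much scarcer. It gave 3.33, 6.63 and 6.77 TPM in bzip59 shade and 0.97, 2.56 and 2.49 TPM in bzip59 white light. In Col-0 it gave 9.75, 3.76 and 3.88 TPM in shade and 2.43, 1.24 and 1.23 TPM in white light. Its highest value was in Col-0 shade 1, where PRE6 and PRE2 were at their lowest among the Col-0 shade libraries. The change in bzip59 was log2 1.13 (SE 0.37, limma adjusted p = 0.074), and the rise in Col-0 was 1.29 (SE 0.37, limma adjusted p = 0.0468). The Col-0 call ended when library 1 (log2 0.90, limma adjusted p = 0.129), 2 (0.0587) or 3 (0.0717) of Col-0 shade was left out. It ended as well without Col-0 white light 1 (0.0517), 2 (0.149) or 3 (0.112), without bzip59 white light 3 (0.063) and without bzip59 shade 2 (0.0582) or 3 (0.0632), all limma adjusted p. The bzip59 change passed without Col-0 shade 1 (limma adjusted p = 0.0378). Without the pair that stood apart neither change passed, at log2 1.00 in bzip59 (limma adjusted p = 0.108) and 0.90 in Col-0 (0.144).

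PRE5 (AT3G28857) had the lowest mean of the family over the 12 libraries. It gave 0.57, 1.86 and 2.08 TPM in bzip59 shade and 0.21, 0.38 and 0.51 TPM in bzip59 white light. In Col-0 it gave 1.38, 0.79 and 1.52 TPM in shade and 0.19 and 0.16 TPM in 2 white-light libraries, and it was listed at 0 in the third. The shade libraries lay above the white-light libraries in both genotypes, with no value above 2.08 TPM. In a fit with no filter on low genes its change was log2 0.82 in bzip59 (SE 0.24, limma adjusted p = 0.0679) and 0.99 in Col-0 (SE 0.24, limma adjusted p = 0.0316).

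PRE3 and PRE4 did not share this pattern, and neither passed the test in any comparison. PRE3 (AT1G74500), known as ATBS1 or TMO7 and a target of the auxin response factor MONOPTEROS in the embryo, gave 7.95, 9.84 and 10.1 TPM in bzip59 shade. It gave 17.4, 13.5 and 9.25 TPM in bzip59 white light, 13.2, 9.48 and 14.5 TPM in Col-0 shade and 10.8, 8.73 and 18.7 TPM in Col-0 white light. The groups overlapped in both genotypes, with a change of log2 -0.45 in bzip59 (95% interval -1.05 to 0.15) and 0.01 in Col-0 (-0.59 to 0.61). PRE4 (AT3G47710), also called BANQUO 3, stayed between 0.21 and 2.57 TPM over the 12 libraries. Its changes were -0.22 in bzip59 (95% interval -1.03 to 0.58) and -0.41 in Col-0 (-1.22 to 0.40). The PRE4 intervals span changes in either direction. Without the pair that stood apart the changes were -0.49 in bzip59 and -0.04 in Col-0 for PRE3, and -0.45 in bzip59 and -0.80 in Col-0 for PRE4, and none passed.

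The antagonist gene IBH1 (AT2G43060) rose in shade together with PRE6. It gave 28.4, 23.3 and 31.9 TPM in bzip59 shade and 13.1, 17.1 and 16.6 TPM in bzip59 white light. In Col-0 it gave 30.2, 32.6 and 31.2 TPM in shade and 12.4, 11 and 18.3 TPM in white light. No shade library overlapped a white-light library, and the 3 Col-0 shade libraries lay close together. The change was log2 0.80 in bzip59 (SE 0.18, limma adjusted p = 0.0178) and 1.15 in Col-0 (SE 0.18, limma adjusted p = 0.00199). The bzip59 call ended without bzip59 shade 1 (limma adjusted p = 0.0726) or bzip59 shade 3 (0.0891), and with TMM factors (log2 0.66, 0.0713) or quantile normalization (0.0666). Without the pair that stood apart the changes were 0.92 in bzip59 (limma adjusted p = 0.0218) and 1.17 in Col-0 (0.00567).

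IBL1 (AT4G30410), known to act beside IBH1 in restraining elongation, gave 13, 13.4 and 12.1 TPM in bzip59 shade and 9.91, 12 and 8.32 TPM in bzip59 white light. In Col-0 it gave 8.76, 14.2 and 14.6 TPM in shade and 10.6, 9.94 and 10.5 TPM in white light. The shade libraries of bzip59 lay just above those in white light, while Col-0 shade 1 fell below its white-light group. The changes of log2 0.33 in bzip59 (95% interval -0.06 to 0.72) and 0.22 in Col-0 (-0.17 to 0.61) did not pass (limma adjusted p = 0.262 and 0.524), nor did those without the pair that stood apart, at 0.30 in bzip59 and 0.44 in Col-0. IBL1 was the only one of the 8 genes listed with more than 1 transcript. Transcript 2 carried at most 18.8% of its TPM in any library, so transcript 1 set the gene's level throughout.

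**Figure D2:**
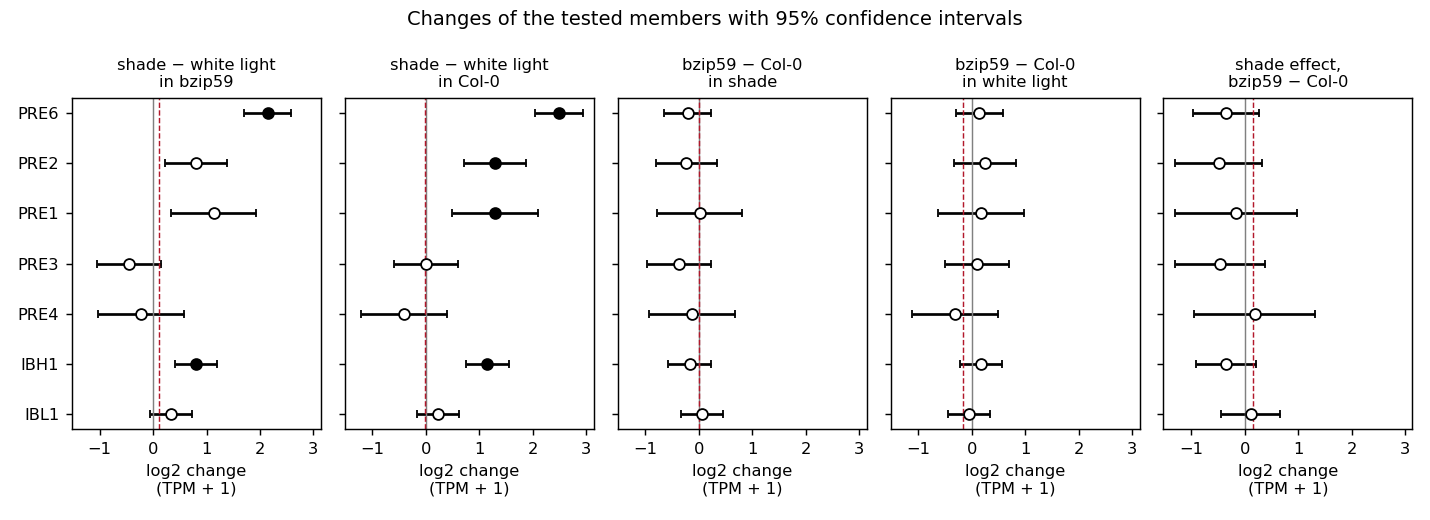
Change in log2(TPM + 1) of the 7 tested genes in the 5 comparisons, with 95% confidence intervals. Filled points passed the limma test over all genes, the grey line marks 0 and the dashed red line the median of all tested genes. Filled points stand at PRE6 and IBH1 for shade in bzip59, and at PRE6, PRE2, PRE1 and IBH1 for shade in Col-0.

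The makeup of the family differed between lights, as a description with no test of its own. PRE6 made up 80.8, 69.1 and 74.6% of the summed TPM of PRE1 to PRE6 in bzip59 shade and 40, 45.8 and 52% in bzip59 white light. In Col-0 its share was 68.4, 78.6 and 74.4% in shade and 46.4, 49.4 and 42.2% in white light. PRE3 held the next largest share in white light and PRE2 in shade, by group means. The 6 PRE genes together reached 130 ± 16.3 TPM in bzip59 shade and 46.4 ± 3.35 TPM in bzip59 white light (SD, n = 3 each). In Col-0 they reached 154 ± 30.3 TPM in shade and 42.2 ± 8.95 TPM in white light (SD, n = 3 each).

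The sum of the antagonists differed less between lights than the PRE sum did. IBH1 and IBL1 summed to 40.7 ± 3.75 TPM in bzip59 shade and 25.7 ± 3.10 TPM in bzip59 white light, and to 43.8 ± 4.23 TPM in Col-0 shade and 24.2 ± 4.07 TPM in Col-0 white light (SD, n = 3 each). The ratio of PRE transcripts to antagonist transcripts was 3.19, 3.08 and 3.30 in bzip59 shade and 1.99, 1.72 and 1.74 in bzip59 white light. It was 3.05, 3.60 and 3.80 in Col-0 shade and 1.86, 1.57 and 1.77 in Col-0 white light. All 6 shade libraries thus had a higher ratio than all 6 white-light libraries, and the genotypes overlapped in each light. Without the pair that stood apart the PRE sum was 132 and 145 TPM in bzip59 shade and 168 and 174 TPM in Col-0 shade, and that of the antagonists 41.4 and 44.0 TPM in bzip59 shade and 46.7 and 45.8 TPM in Col-0 shade. The PRE sums, the antagonist sums and the ratios of bzip59 and Col-0 in shade then did not overlap, with 2 libraries each and no test. So few libraries can separate without a difference between genotypes. The ratio is built from both sums, so these are not separate observations. IBH1 by itself still overlapped, at 28.4 and 31.9 TPM in bzip59 shade and 32.6 and 31.2 TPM in Col-0 shade. The libraries left out held the lowest PRE sum of their groups, at 113 TPM in bzip59 shade 2 and 119 TPM in Col-0 shade 1. How many of all genes separate in this way was not computed. The ratio is of transcripts and was not tested, and it says nothing of protein levels.

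**Figure D3:**
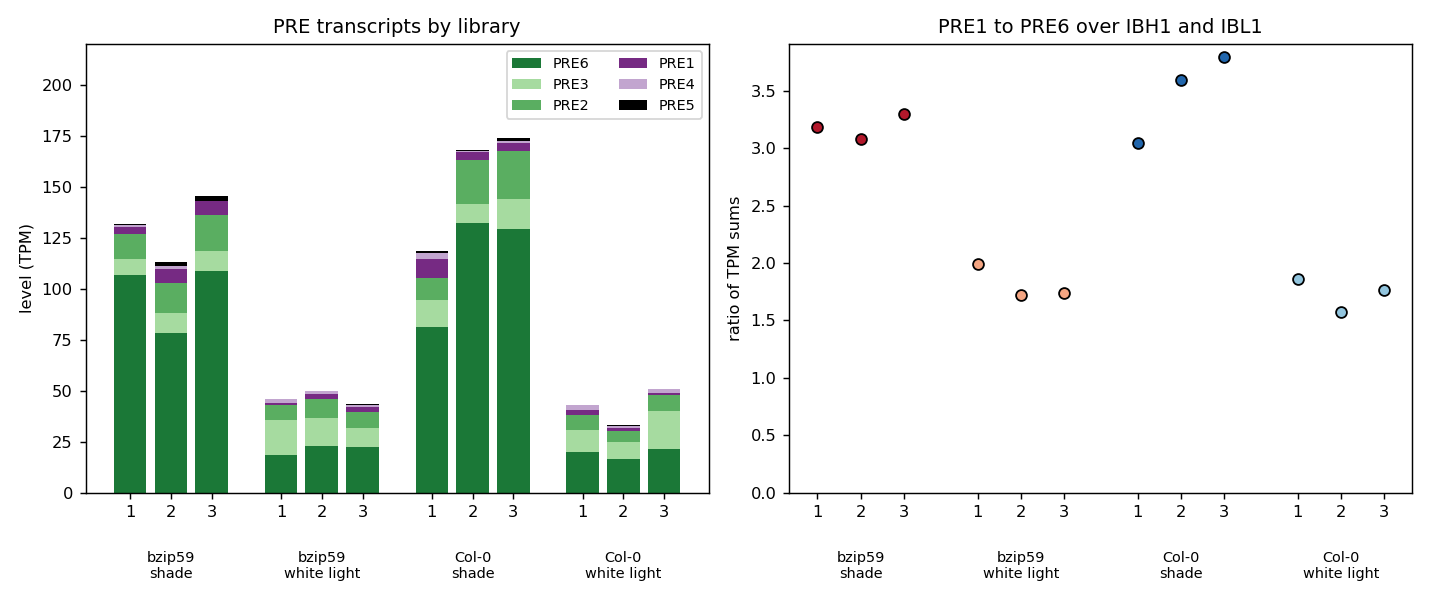
Left, level (TPM) of the 6 PRE genes stacked for each library, with the replicate number below. Right, ratio of the summed TPM of PRE1 to PRE6 to that of IBH1 and IBL1 in the same libraries, from 3.05 to 3.80 in shade and from 1.57 to 1.99 in white light.

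The order of levels was led by PRE6 and then IBH1 in each of the 4 groups. In shade both stood clear of every gene below them and of each other, at means of 97.7 and 27.9 TPM in bzip59 and 114 and 31.3 TPM in Col-0. In white light IBH1, PRE3 and IBL1 followed one another with overlapping libraries in both genotypes, and PRE6 overlapped IBH1 in Col-0 but not in bzip59. PRE2 overlapped IBL1 in both shade groups, and in Col-0 shade IBL1 overlapped PRE3 and PRE3 overlapped PRE1. In white light PRE2 lay below IBL1 without overlap in Col-0 and with overlap in bzip59. PRE1, PRE4 and PRE5 filled the last 3 places in every group, all with means under 6 TPM.

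Whether bZIP59 was needed for these levels was asked by setting bzip59 against Col-0 in each light. By limma 0 of the 7 tested genes were called in shade, where 0.0406% of all tested genes were, and 0 in white light, where 0.0254% were. At an unadjusted p under 0.05 the count among the 7 was 0 in both lights as well, where 533 of the 19693 genes passed that level in shade and 3047 in white light. The difference between the shade changes of bzip59 and Col-0 gave 0 calls among the 7, also at an unadjusted p under 0.05, and 0 calls among all tested genes (0%), of which 1577 had an unadjusted p under 0.05. PRE5, outside these counts, overlapped between genotypes in shade. In white light its bzip59 libraries lay above those of Col-0, with no value over 0.51 TPM. In the fit with no filter that white-light difference was log2 0.29 (limma adjusted p = 0.584).

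These comparisons bound the difference rather than show that the genotypes were alike. In shade PRE6 differed by log2 -0.21 (95% interval -0.65 to 0.23), PRE2 by -0.24 (-0.81 to 0.34) and IBH1 by -0.17 (-0.57 to 0.22). In white light the differences were 0.14 for PRE6 (-0.30 to 0.58), 0.25 for PRE2 (-0.32 to 0.82) and 0.18 for IBH1 (-0.22 to 0.57), where the median of all genes was -0.16. The difference of the shade effect was -0.35 for PRE6 (-0.97 to 0.28), -0.49 for PRE2 (-1.3 to 0.32) and -0.35 for IBH1 (-0.91 to 0.21), against a median of 0.15 over all genes. With TMM factors, which brought both medians to within 0.01 of 0, the white-light differences were 0.31 for PRE6, 0.40 for PRE2 and 0.34 for IBH1. The differences of the shade effect were then -0.51 for PRE6, -0.64 for PRE2 and -0.51 for IBH1, and none of these passed. PRE2 and PRE1 were called in Col-0 alone, but the difference of their shade effects between genotypes did not pass (limma adjusted p = 0.682 for PRE2 and 0.923 for PRE1). For PRE1 the interval of that difference ran from -1.29 to 0.98.

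Other genes with the most similar profile were ranked by Pearson's r of log2(TPM + 1) over the 12 libraries, which share the contrast of shade and white light. RABA1F (AT5G60860, r = 0.994), BEE1 (AT1G18400, r = 0.993) and PMEI7 (AT4G25260, r = 0.991) came closest to PRE6. RABA1F also stood second for IBH1 (r = 0.975), between VPS26B (AT4G27690, r = 0.976) and SAUR23 (AT5G18060, r = 0.971). AT2G36690 (r = 0.963) came closest to PRE2, followed by AT1G23960 (r = 0.939) and ARGOS (AT3G59900, r = 0.938). PRE1 had BHLH117 (AT3G22100, r = 0.947), AT1G08657 (r = 0.935) and AT5G50130 (r = 0.920) as nearest. The nearest genes of PRE3, PRE4 and IBL1, which were called in no comparison, were less close. For PRE3 they were UGT79B5 (r = 0.900), IPSP (0.893) and AT5G44550 (0.887). For PRE4 they were CYP735A2 (0.903), AT2G08100 (0.896) and RD19D (0.888), and for IBL1 VPS37-1 (0.912), BUB3.3 (0.896) and AT4G07170 (0.891). All these genes were picked as the closest of 19693 over only 12 libraries. How high r would reach among unrelated genes was not tested, so the ranking does not show shared regulation. BHLH117, UGT79B5, AT2G08100 and AT4G07170 averaged only 1.249, 1.498, 1.26 and 1.225 TPM. The other genes named averaged 2.02 TPM or more.

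Around the PRE and IBH1 proteins, 35 further genes were read from the same fit, a list drawn up with earlier results of these data known. In bzip59 15 rose and 2 fell in shade, where 6.49% and 3.7% of all tested genes did. In Col-0 12 rose and 4 fell, against 3.42% and 6.5%. The median change of the list was log2 0.36 in bzip59, against 0.11 over all tested genes, and 0.07 in Col-0, against -0.01. With TMM factors 12 of the list rose and 2 fell in bzip59, and 12 rose and 4 fell in Col-0. Without the pair that stood apart 15 rose and 2 fell in bzip59, and 11 rose and 4 fell in Col-0. Leaving out Col-0 shade 3 reduced the 16 calls in Col-0 to 10.

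Among 12 DNA-binding bHLH activators, the class on which IBH1 acts, 4 rose in bzip59 shade and none fell. In Col-0 3 rose and 1 fell. BEE1, a brassinosteroid early-response bHLH, gave 72.4, 55 and 81.9 TPM in bzip59 shade and 8.86, 7.94 and 9.71 TPM in bzip59 white light. In Col-0 BEE1 gave 48.7, 82.4 and 75.7 TPM in shade and 8.23, 5.39 and 7.38 TPM in white light. It was low in the same pair of shade libraries as PRE6. BEE3 rose by log2 2.06 in bzip59 and 1.54 in Col-0, and CIB1, a cryptochrome-interacting bHLH, by 3.92 and 2.14. The bzip59 white-light libraries held 3.18, 0 and 1.88 TPM of CIB1, the second of them listed at 0. BEE2 rose in bzip59 (log2 0.51), with 0.30 in Col-0. BPE, which limits petal size, fell in Col-0 (log2 -0.77), with -0.50 in bzip59. The difference of the BPE shade effects did not pass (limma adjusted p = 0.761), and BPE stayed between 0.65 and 2.96 TPM. HBI1, the activator that IBH1 is best known to bind, measured 74.3 ± 9.78 TPM in bzip59 shade, 60.8 ± 6.94 TPM in bzip59 white light, 68 ± 8.0 TPM in Col-0 shade and 70.9 ± 9.76 TPM in Col-0 white light (SD, n = 3 each). Its changes of log2 0.28 in bzip59 and -0.06 in Col-0 did not pass (limma adjusted p = 0.249 and 0.876).

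Of 8 other helix-loop-helix genes that restrain bHLH activators, 6 rose and 1 fell in each genotype. HFR1, which restrains elongation in shade, rose by log2 3.24 in bzip59 and 2.71 in Col-0. PAR1, whose protein PRE1 is known to bind, rose by 2.82 in bzip59 and 2.95 in Col-0. Of the AIF genes, named for proteins that interact with PRE3, AIF3 rose by 1.45 in bzip59 and 0.94 in Col-0 and AIF4 by 0.98 and 0.80. AIF1 fell by 0.75 in bzip59 and by 0.72 in Col-0 on the log2 scale. IBH1 thus rose beside genes for several other inhibitors, and the level of the AIF1 transcript went the other way.

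Of 13 genes listed as upstream regulators 5 rose and 1 fell in bzip59 shade, and 3 rose and 2 fell in Col-0. The 5 include the mutated gene bZIP59 itself (log2 0.71, limma adjusted p = 0.0309), with 0.16 in Col-0. Its place as a regulator of PRE genes was not shown here. GAI, a DELLA repressor of gibberellin responses, rose by log2 1.37 in bzip59 and 1.28 in Col-0. PIF3 rose by 1.3 in bzip59 and 0.88 in Col-0, and BZR1, a brassinosteroid-response factor known to act on PRE genes, by 0.90 and 0.51. PIF5 rose in bzip59 (log2 0.83), with -0.06 in Col-0, and the difference of its shade effects did not pass (limma adjusted p = 0.536). Its means in shade were alike, at 23.4 TPM in bzip59 and 24.2 TPM in Col-0. In white light they were 12.65 TPM in bzip59 and 25.4 TPM in Col-0, a difference that did not pass (limma adjusted p = 0.0914). PIF7 fell by 1.17 in bzip59 and by 2.07 in Col-0 on the log2 scale, from white-light means of 18.9 and 27.8 TPM. PIF1 fell in Col-0 (log2 -0.67), with -0.22 in bzip59, and the difference of its shade effects did not pass (limma adjusted p = 0.617). Neither of the 2 expansin genes on the list, EXPA1 and EXPA8, passed the test in either genotype. EXPA1 changed by log2 -0.03 in bzip59 (limma adjusted p = 0.921) and by -0.47 in Col-0 (0.059), and EXPA8 by 0.25 (0.562) and -0.15 (0.791).

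**Figure D4:**
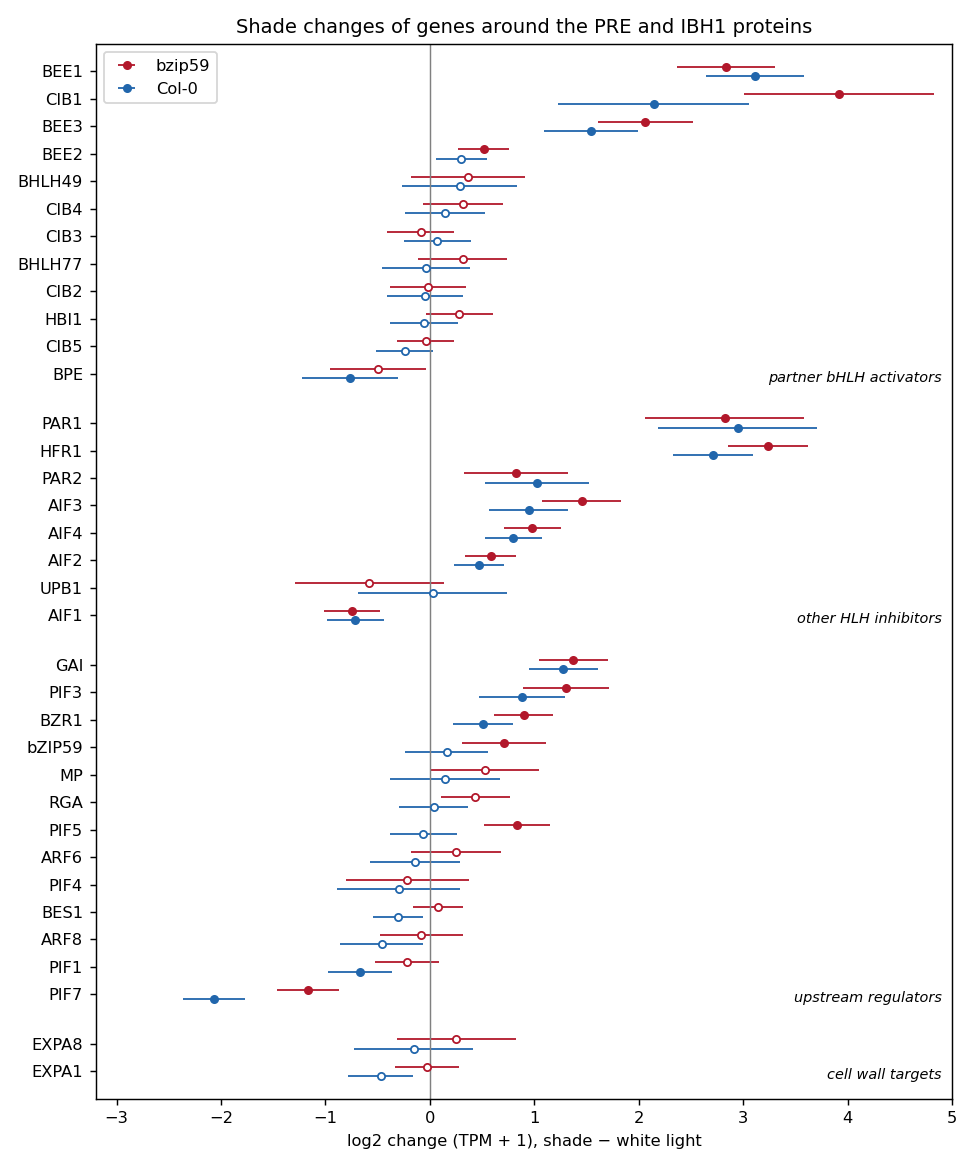
Change in log2(TPM + 1) between shade and white light of the 35 listed genes in bzip59 (red) and Col-0 (blue), grouped by role, with 95% confidence intervals. Filled points passed the limma test over all genes. BEE1, CIB1, BEE3, PAR1 and HFR1 lie far to the right in both genotypes and PIF7 to the left.

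Between genotypes 1 of the 35 listed genes was called in each light, bZIP59 itself, and none in the difference of the shade effect. Leaving out library 1 or 2 of bzip59 shade, or library 1 or 2 of Col-0 shade, ended the call of bZIP59 in shade and left 0 of the 35. In white light the count was 2 without bzip59 shade 2.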

How the data were processed

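Per the submitters' processing notes, reads were handled with fastp and cutadapt, aligned with HISAT2 to TAIR10, and DESeq2 is named as well; no versions are given. The authors deposited TPM per transcript in 12 library columns. The tool behind the TPM values and the strandedness are not given in the sources used here. A further 4 columns equalled group means within 3.33e-06 TPM and were not used. Sums over 54013 transcripts gave 32833 genes. RefSeq (TAIR10.1), used for names and overlaps only, held 32548 of these loci. Column sums ran from 937165 to 955765 TPM.

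Genes averaging 1 TPM or more were tested with limma 3.58.1 (R 4.3.3) on log2(TPM + 1) with an intensity trend, in one fit of 4 group means. The threshold was 0.05 after Benjamini-Hochberg adjustment. The fit was tested on simulated data. Alternatives changed the pseudocount (0.1 or 0.5), the filter (none or 5 TPM), scaling (unweighted TMM or quantile), trend, a block for the replicate number, the groups in the fit and the libraries. Sums, shares and correlations were computed with pandas 2.3.3. The 8 genes and all lists were chosen with earlier results of these data known. All 8 were named. Listed genes were named by smallest p, up to 4 per role and direction, along with the 3 genes most like each tested gene. HBI1 and both expansin genes were added after their values were seen. Sequences were not analysed here.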

Additional observations from a re-analysis of the deposited data

How the results depend on the processing

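In all alternatives run, PRE6 kept its rise in both genotypes (log2 2.00 to 2.29 in bzip59 and 2.37 to 2.71 in Col-0), and PRE2 and IBH1 kept theirs in Col-0. The number of the 8 genes called for shade in bzip59, 2 in the main analysis, was 1 with either TMM factors or quantile normalization and ran from 1 to 4 when single libraries were left out. In Col-0, where it was 4, it ran from 3 to 4. The listed pathway genes called for shade ran from 14 to 19 in bzip59 and from 10 to 16 in Col-0 with single libraries left out. Between genotypes their count in white light was 0 with only the groups compared and 2 without Col-0 shade 1 and bzip59 shade 2, and ran from 1 to 2 with single libraries left out. In shade it was 0 under both of those settings and ran from 0 to 1.

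Whether replicate numbers pair the samples could not be settled with 3 libraries per group. Correlations of deviations between same-numbered libraries ran from -0.15 to 0.25, and 3 of 18 were over 0.1. Between differently numbered libraries they ran from -0.28 to 0.16. The highest values, 0.25 and 0.24, joined same-numbered libraries of Col-0 shade and bzip59 white light. With the replicate number as a block the count was 2 in bzip59 and 3 in Col-0, the one lost being PRE1 (limma adjusted p = 0.0777). The PRE1 call in Col-0 ended in 14 of 22 alternatives, among them no filter (0.0768), only the groups compared (0.0782), without the white-light libraries numbered 2 (0.137) and without Col-0 shade 1 and bzip59 shade 2 (0.144), all limma adjusted p. A minimum mean of 5 TPM removed PRE1 and PRE4 from the tests.

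Signs turned in 37 of 788 recomputed changes, none past the threshold, and the cause was not tested. In white light, leaving out the libraries numbered 2 there turned the genotype difference to log2 -0.030 for IBH1, -0.077 for PRE1, -0.011 for PRE2, -0.15 for PRE3 and -0.021 for PRE6. IBL1 turned to 0.11 with TMM factors and 0.14 with quantile normalization in that comparison, and its difference of shade effects to -0.044 and -0.077. Without Col-0 shade 1 and bzip59 shade 2 the genotype difference in shade was -0.18 for IBL1 and 0.041 for PRE4. The difference of shade effects was then -0.14 for IBL1 and 0.10 for PRE1, which was 0.090 without the white-light libraries numbered 2. The Col-0 shade change of PRE3 was -0.043 and -0.21 under the same pair of settings. With single libraries left out, the shade change ran from -0.21 to 0.30 for PRE3 in Col-0 and from -0.45 to 0.10 for PRE4 in bzip59. The genotype difference ran from -0.12 to 0.39 for PRE3 and from -0.17 to 0.071 for IBL1 in white light. In shade it ran from -0.19 to 0.40 for PRE1, from -0.38 to 0.27 for PRE4 and from -0.15 to 0.18 for IBL1. The difference of shade effects ran from -0.44 to 0.23 for PRE1, from -0.070 to 0.58 for PRE4 and from -0.11 to 0.23 for IBL1.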

Other observations

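Within groups, after each group's mean was taken away, PRE2 and PRE6 varied together over the 12 libraries (r = 0.79), as did PRE6 and IBH1 (r = 0.66), while PRE1 and PRE6 did not (r = -0.40). Without Col-0 shade 1 and bzip59 shade 2 these values were 0.72, 0.87 and 0.54, so the sign for PRE1 and PRE6 rests on that pair of libraries. PRE2 and IBL1 gave r = 0.79 with all libraries and 0.35 without the pair, and PRE4 and PRE6 gave -0.75 and -0.17. These are descriptions over few libraries, which share depth and composition within each library.

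In Col-0 shade 1, where PRE6, PRE2, IBH1 and IBL1 were at their lowest of the Col-0 shade group, PRE1 and PRE4 were at their highest. Green tissue markers summed to 41876 TPM in that library and to 57002 and 54449 TPM in the other Col-0 shade libraries. In bzip59 shade 2, which had 43257 TPM of green tissue markers against 52017 and 52781 TPM in its group, PRE6 and IBH1 were at their lowest, but PRE2 was not. The part of these differences in the levels of the PRE genes was not tested.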
